A study of Mus musculus with 10 samples.

Results

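CXC chemokines are small secreted or membrane-bound proteins that guide leukocytes, and they are named for a pair of conserved cysteines with a single residue between them. Cxcl1 and Cxcl2 draw neutrophils through the receptor Cxcr2, Cxcl9 and Cxcl10 are induced by interferon gamma and draw T and NK cells through Cxcr3, and Cxcl13 draws B cells through Cxcr5. Cxcl12 acts on Cxcr4, and Cxcl16, which is made as a membrane protein and can be shed by the protease Adam10, acts on Cxcr6. In injured liver these ligands come from hepatocytes, stellate cells, sinusoidal endothelium and macrophages. The genes described here were 8 ligands (Cxcl1, Cxcl2, Cxcl9, Cxcl10, Cxcl12, Cxcl13, Cxcl14 and Cxcl16) and 2 receptors (Cxcr4 and Cxcr6). They were taken by their exact symbol in the array annotation, and each of the 10 had 1 probe set, among 14860 genes and 23332 probe sets in all.

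Livers came from male Balb/c mice obtained at 8 weeks of age and given CCl4, a solvent toxic to hepatocytes that scars the liver when given again and again, or oil, for 6 weeks. There were 5 CCl4 livers and 5 oil livers, labelled as biological replicates and each on 1 array, and both groups were of the same sex and strain. Total RNA of whole liver was measured, so a change in the number of a cell type and a change in RNA per cell cannot be told apart. Values are log2 intensities as the authors deposited them, and the strength of 1 probe set is not comparable with that of another.

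The hepatocyte gene Alb (albumin) lay between 12.98 and 13.12 in CCl4 livers and between 12.97 and 13.20 in oil livers. Over all probe sets, which are no independent replicates, any pair of arrays had an r of at least 0.959. CCl4 replicate 4 had the lowest array quality weight (0.459, against 0.804 to 1.44 for the other arrays). CCl4 replicates 1 and 2 and oil replicates 1 and 2 stood apart in the clock gene Dbp, at 8.72 and 8.08 in those CCl4 livers and 8.39 and 7.77 in those oil livers. The other CCl4 livers had 5.74 to 6.31 and the other oil livers 3.42 to 4.04.

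The sequences upstream of Cxcl1, Cxcl2, Cxcl9 and Cxcl10 are shown because these ligands answer to NF-κB or interferon. These ligands were also chosen because each was highest, among CCl4 livers, in replicate 2. Cxcl14 and Cxcl16 were highest there too and are not shown, and a link of motifs to that liver was not tested. The sequences are the 250 bases before the annotated start on the gene's own strand, from RefSeq on GRCm38.p6. Capitals mark matches, on either strand, to the κB-like letters GGGNNTTTC and to the interferon-response-type motif GAAANNGAA. GGGNNTTTC is not the full κB consensus, and κB sites of other form, as in Cxcl10, stay in lower case.
Cxcl1, chr5:90890995-90891244, plus strand: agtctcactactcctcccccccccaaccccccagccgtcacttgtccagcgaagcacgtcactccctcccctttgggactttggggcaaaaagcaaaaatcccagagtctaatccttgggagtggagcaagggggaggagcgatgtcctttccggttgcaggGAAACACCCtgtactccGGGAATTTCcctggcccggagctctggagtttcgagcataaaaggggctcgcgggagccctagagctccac
Cxcl2, chr5:90903649-90903898, plus strand: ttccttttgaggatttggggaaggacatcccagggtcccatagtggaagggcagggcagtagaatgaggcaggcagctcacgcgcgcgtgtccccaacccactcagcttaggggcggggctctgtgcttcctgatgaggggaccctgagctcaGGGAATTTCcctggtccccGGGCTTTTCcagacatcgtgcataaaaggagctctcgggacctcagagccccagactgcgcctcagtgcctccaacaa
Cxcl9, chr5:92328080-92328329, minus strand: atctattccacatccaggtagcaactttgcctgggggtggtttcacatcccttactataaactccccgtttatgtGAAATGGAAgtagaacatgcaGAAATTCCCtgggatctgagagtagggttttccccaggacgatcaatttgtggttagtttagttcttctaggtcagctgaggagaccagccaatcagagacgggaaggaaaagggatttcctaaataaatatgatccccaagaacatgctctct
Cxcl10, chr5:92348890-92349139, minus strand: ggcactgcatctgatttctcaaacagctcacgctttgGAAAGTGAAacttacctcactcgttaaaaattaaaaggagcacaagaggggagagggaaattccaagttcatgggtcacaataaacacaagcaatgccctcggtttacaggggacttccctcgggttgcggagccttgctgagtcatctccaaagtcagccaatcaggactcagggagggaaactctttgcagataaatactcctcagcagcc

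Cxcl1 and Cxcl2 share the letters GGGAATTTC, which begin 71 bases before the start of Cxcl1 and 97 bases before that of Cxcl2, and Cxcl9 holds them on the opposite strand at 154 bases. In windows that run 250 bases before to 50 bases after a start, these letters occur on either strand in 85 of 32851 promoters, or 0.259%. The looser form GGGNNTTTC, which includes those sites, occurs in 4.36% of promoters and has 2 matches in each of Cxcl1 and Cxcl2 and 1 in each of Cxcl9 and Cxcr4. The motif GAAANNGAA begins 213 bases before the start of Cxcl10, 175 bases before that of Cxcl9 and 172 bases before that of Cxcl14, and it occurs in 8.56% of promoters. Cxcl14 further held TTCNNNGAA, a STAT-type motif that occurs in 8.3% of promoters. The promoters of Cxcl12, Cxcl13 and Cxcr6 held none of these letters in the window, and a promoter of Cxcl16 was not used here. Cxcl1, Cxcl2, Cxcl9, Cxcl10 and Cxcl13, 5 of the 10 genes, lie on chromosome 5. The letters were shortened after longer forms had been searched, and Cxcl9 and Cxcr4 matched only the shorter forms. Enrichment of the motifs in these genes was not tested. A match describes letters only and is no evidence of binding, and the lack of a match does not mean that a site is absent.

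Of the 10 genes, 1 was higher in CCl4 livers and 0 were lower at a limma adjusted p under 0.05, with 3 at an unadjusted p under 0.05. Among all 23332 probe sets 0.63% were higher and 0.09% lower by the adjusted p, and 11.3% had an unadjusted p under 0.05 in either direction. The log2 fold change, CCl4 minus oil, was positive for 8 of the 10 genes, against 7798 of all 14860 genes. It had a median of 0.54, against a median of 0.01 over all genes. It ranged between -0.83 for Cxcl9 and 1.30 for Cxcl16. The median describes the genes chosen and was not tested.

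**Figure D1:**
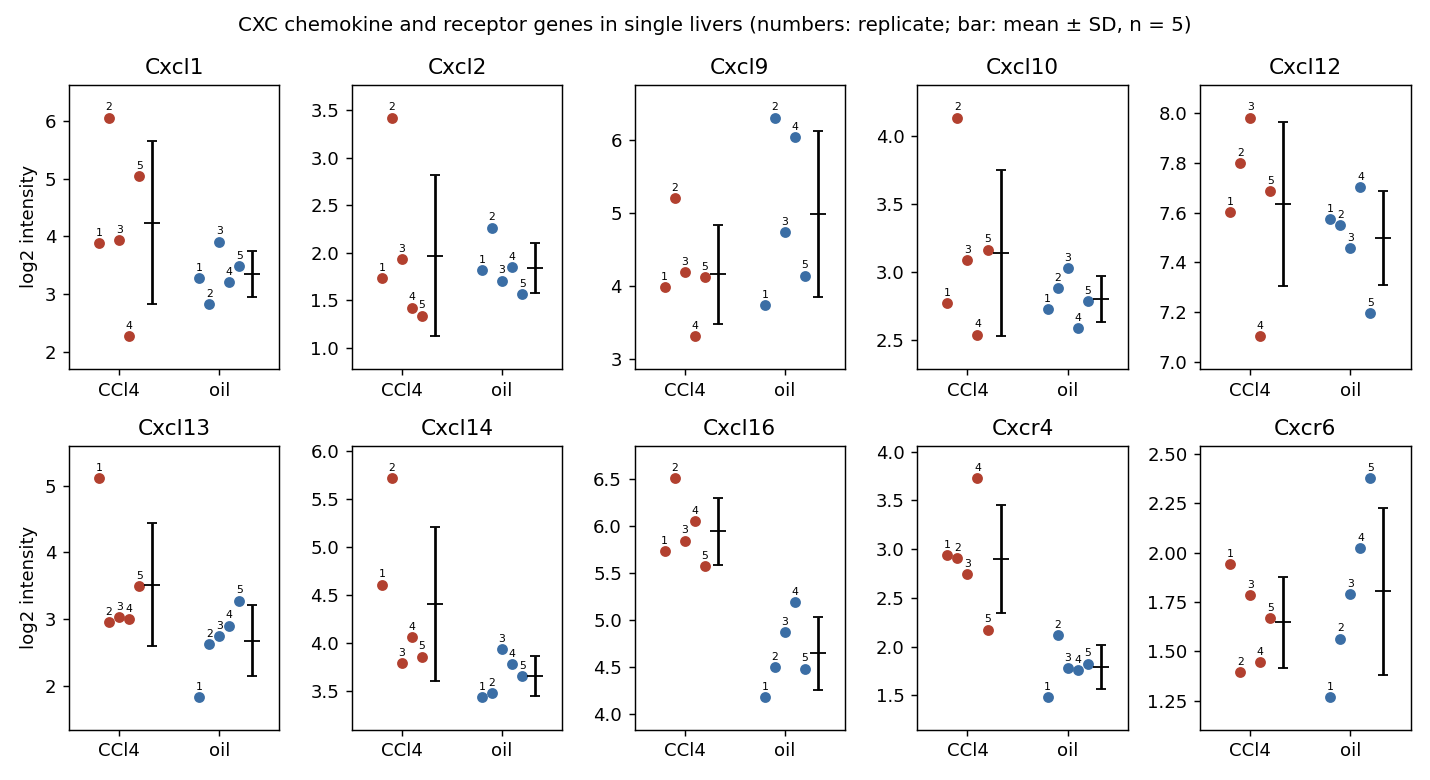
Log2 intensity (vertical axis, own scale in each panel) of the 10 CXC chemokine and receptor genes in single livers, with CCl4 livers in red at the left and oil livers in blue at the right, replicate numbers beside the points, and the mean ± SD as a bar (n = 5). The CCl4 and oil points do not overlap for Cxcl16 and Cxcr4 and overlap for the other 8 genes. Among all probe sets, 2.73% have all CCl4 livers above all oil livers and 1.16% have all below.

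Cxcl16 rose in CCl4 livers. This gene encodes the membrane-bound ligand of Cxcr6 and a scavenger receptor for oxidized lipid on macrophages. It was 5.73, 6.50, 5.84, 6.05 and 5.57 in CCl4 replicates 1 to 5, against 4.18, 4.50, 4.87, 5.18 and 4.48 in oil replicates 1 to 5. All 5 CCl4 livers lay above all 5 oil livers, as for 2.73% of all probe sets. The lowest CCl4 liver was replicate 5 and the highest oil liver replicate 4. The mean was 5.94 ± 0.36 in CCl4 livers and 4.64 ± 0.39 in oil livers (SD, n = 5 each), which gave a log2 fold change of 1.30 ± 0.22 (SE) or 2.46-fold, with a limma adjusted p of 0.0303. The SD was similar in both groups.

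The difference in Cxcl16 stayed between 1.16 and 1.43 on the log2 scale when each array was left out in turn, but the call held in 3 of those 10 fits. The limma adjusted p was 0.0566, 0.0535 and 0.0684 without CCl4 replicates 1, 3 and 4, and 0.0727, 0.0880, 0.0770 and 0.102 without oil replicates 1, 2, 3 and 5. It was 0.0511 with the clock genes as a covariate and 0.0828 with the replicate number as a block.

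Cxcr6, the receptor of Cxcl16 on T and NKT cells, did not move with its ligand. It was 1.94, 1.40, 1.79, 1.45 and 1.67 in CCl4 replicates 1 to 5 and 1.27, 1.57, 1.79, 2.02 and 2.38 in oil replicates 1 to 5, and the groups overlapped throughout. For Cxcr6 the log2 fold change was -0.16 with a 95% confidence interval from -0.59 to 0.28 and a limma adjusted p of 0.861. Its probe set lay below the median of all probe sets (2.58). Of 13 T and NK cell markers 10 were measured, and 0 passed in either direction. Their mean log2 value was between 1.82 and 1.95 in CCl4 livers and between 1.87 and 2.06 in oil livers. These means too lay below the median of all probe sets. Cd4, the helper T cell coreceptor, was at -0.35 and Cd3d, a subunit of the T cell receptor complex, at -0.14 on the log2 scale, with limma adjusted p of 0.450 and 0.564.

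Proteases that cut chemokines were examined with the ligands. Of 9 such genes 8 were measured, and 2 were higher and 0 lower, with a median log2 fold change of 0.18. Mmp2 (gelatinase A), which can cleave Cxcl12, rose by 2.65 ± 0.21 (SE, limma adjusted p = 0.00134) and Mmp12, the macrophage elastase, by 5.99 ± 0.96 (SE, limma adjusted p = 0.0260). Mmp2 passed in every setting tried, while the Mmp12 call was lost without CCl4 replicate 1 or 4 or any 1 of the oil livers (limma adjusted p between 0.0550 and 0.0917). The Mmp12 call was also lost with the replicate number as a block (0.0862), with the clock covariate (0.0606) and by the methods' t-test after Benjamini-Hochberg (0.112). Adam10, the sheddase of Cxcl16, was 7.10, 7.32, 7.03, 7.33 and 6.61 in CCl4 replicates 1 to 5 and 6.03, 6.29, 6.54, 6.78 and 6.13 in oil replicates 1 to 5. Its groups overlapped in CCl4 replicate 5 and oil replicate 4. The log2 fold change of Adam10, which was named after its values were seen, was 0.72 ± 0.18 (SE) with a limma adjusted p of 0.110.

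The macrophage markers also differed between the groups in which Cxcl16 differed. Of 12 markers 10 were measured, 3 rose (Gpnmb by 5.99, Trem2 by 2.58 and Cd68 by 2.31 on the log2 scale) and 0 fell. Their mean log2 value was between 5.58 and 7.50 in CCl4 livers and between 4.35 and 4.79 in oil livers. CCl4 replicate 5 was the lowest CCl4 liver and replicate 2 the highest for both the list mean and Cxcl16. Oil replicates 1 and 4 were the lowest and the highest oil livers for both. Among all probe sets CCl4 replicate 5 was the lowest CCl4 liver in 18.6% and replicate 2 the highest in 21.4%. Oil replicate 1 was the lowest oil liver in 29.6% and replicate 4 the highest in 27.7%. Of 12 markers of stellate cells and fibroblasts, all measured, 6 rose and 0 fell, among them Lum by 3.06, Col1a2 by 2.55, Col1a1 by 2.54 and Pdgfrb by 1.40. Their mean was between 6.08 and 7.08 in CCl4 livers and between 4.76 and 5.44 in oil livers. It too was highest in CCl4 replicate 2 and oil replicate 4, but lowest in CCl4 replicate 3 and oil replicate 5. Gpnmb and Lum passed in every setting tried. Without CCl4 replicate 1, or without oil replicate 1, 2, 3 or 5, Cd68, Trem2, Col1a1 and Pdgfrb did not pass, with limma adjusted p up to 0.102. Cd68 and Trem2 also failed to pass without CCl4 replicate 4 or oil replicate 4, and Trem2 without CCl4 replicate 2. With the replicate number as a block the adjusted p was 0.0862 for Cd68, 0.109 for Trem2, 0.0920 for Col1a1, 0.111 for Pdgfrb and 0.0630 for Col1a2. The methods' t-test after Benjamini-Hochberg ended the same 5 calls, and the clock covariate ended those of Cd68, Trem2, Col1a1 and Pdgfrb (limma adjusted p between 0.0511 and 0.0782). The part of either cell type in the Cxcl16 difference was not tested.

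The genes whose pattern over the 10 arrays was most like that of Cxcl16 were Pdgfrb, the platelet-derived growth factor receptor β of stellate cells, Ppic, which encodes cyclophilin C, and Lgmn, a lysosomal protease. Likeness was the root mean square difference from Cxcl16 over the 10 arrays, with each gene taken relative to its own oil mean, among 14859 genes. It was 0.17 for Pdgfrb, 0.18 for Ppic and 0.21 for Lgmn on the log2 scale. Pdgfrb was 5.202, 6.005, 5.003, 5.153 and 5.161 in CCl4 replicates 1 to 5 and 3.57, 3.63, 4.10, 4.43 and 3.80 in oil replicates 1 to 5. As with Cxcl16, CCl4 replicate 2 was highest among CCl4 livers and oil replicate 1 lowest among oil livers. The log2 fold changes of Ppic and Lgmn were 1.28 and 1.39. Because these genes were picked for likeness on these same arrays, the similar liver order and fold changes follow largely from that choice.

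Cxcr4, the receptor of Cxcl12 on leukocytes and progenitor cells, had the second largest difference and did not pass the threshold. It was 2.94, 2.91, 2.74, 3.72 and 2.17 in CCl4 replicates 1 to 5, against 1.48, 2.11, 1.78, 1.76 and 1.82 in oil replicates 1 to 5. The groups did not overlap, with CCl4 livers above oil livers as for 2.73% of all probe sets. However, CCl4 replicate 5 was only just above oil replicate 2, and CCl4 replicate 4 was the highest. The mean was 2.90 ± 0.56 in CCl4 livers and 1.79 ± 0.22 in oil livers (SD, n = 5 each), and the log2 fold change was 1.11 ± 0.24 (SE) with a limma adjusted p of 0.0757. Without CCl4 replicate 5 the adjusted p was 0.0200, and in the other 9 fits with 1 array left out it stayed above the threshold. The mean over all 10 arrays lay below the median of all probe sets.

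**Figure D2:**
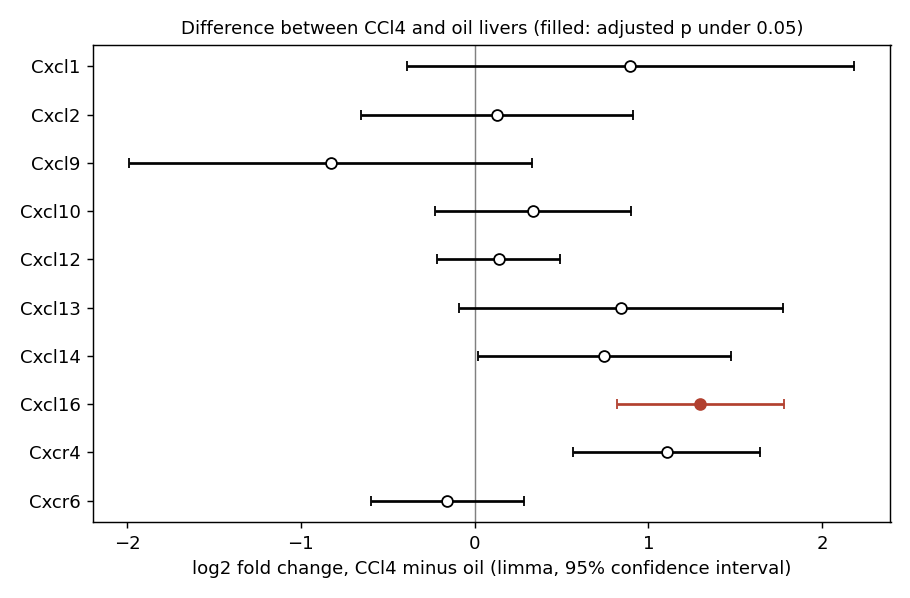
Log2 fold change, CCl4 minus oil (horizontal axis), of each gene with its 95% confidence interval from limma, 5 livers in each group. The filled red point, Cxcl16 at 1.30, passed an adjusted p under 0.05, and the intervals of Cxcr4 and Cxcl14 also lie above 0 without passing after adjustment over all probe sets.

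Cxcl12, the ligand of Cxcr4, which stellate and endothelial cells make, differed little. It was 7.60, 7.80, 7.98, 7.10 and 7.69 in CCl4 replicates 1 to 5 and 7.57, 7.55, 7.46, 7.70 and 7.20 in oil replicates 1 to 5. The groups overlapped, and the lowest liver of all was CCl4 replicate 4. Its log2 fold change was 0.14 with a 95% confidence interval from -0.22 to 0.49 and a limma adjusted p of 0.845. This interval was the narrowest among the 10 genes. Ackr3, the atypical receptor that takes up Cxcl12, was at 0.08 (limma adjusted p = 0.919) and was named after its values were seen. The probe set of Ackr3 lay below the median of all probe sets.

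The neutrophil-attracting ligands differed between single CCl4 livers more than between the groups. Cxcl1 was 3.89, 6.05, 3.93, 2.28 and 5.05 in CCl4 replicates 1 to 5, against 3.28, 2.83, 3.91, 3.22 and 3.49 in oil replicates 1 to 5. CCl4 replicates 2 and 5 lay far above every oil liver, replicate 3 just above the highest, and replicate 4 below every oil liver. The SD of Cxcl1 was 1.42 in CCl4 livers and 0.40 in oil livers (n = 5 each), and the log2 fold change was 0.90 with a 95% confidence interval from -0.39 to 2.18 and a limma adjusted p of 0.633. It was 0.44 without CCl4 replicate 2 and 1.39 without CCl4 replicate 4.

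Cxcl2 stood out in 1 liver. It was 1.73, 3.42, 1.93, 1.42 and 1.34 in CCl4 replicates 1 to 5 and 1.82, 2.27, 1.71, 1.85 and 1.56 in oil replicates 1 to 5. Apart from CCl4 replicate 2, no CCl4 liver lay above the highest oil liver. For Cxcl2 the log2 fold change was 0.13 ± 0.35 (SE, limma adjusted p = 0.949) and -0.23 without CCl4 replicate 2. Its probe set lay below the median of all probe sets.

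CCl4 replicate 2 was also the highest CCl4 liver in the mean of the neutrophil markers. S100a9, a calcium-binding protein of neutrophils named after its values were seen, was 1.95, 4.17, 1.99, 1.98 and 1.74 in CCl4 replicates 1 to 5 and between 1.41 and 1.67 in oil livers. Retnlg, a secreted neutrophil protein, was 2.16, 4.05, 1.86, 4.36 and 2.12 in CCl4 replicates 1 to 5 and between 1.34 and 1.77 in oil livers. Here replicate 4, the liver with the least Cxcl1, was the highest. Of 10 neutrophil markers 9 were measured and 0 passed, with a mean log2 value between 2.03 and 2.93 in CCl4 livers and between 1.81 and 1.90 in oil livers. Csf3r, the receptor for granulocyte colony-stimulating factor, was at 0.54 (limma adjusted p = 0.148). The list genes Mpo, Camp, Ltf and Elane were at 0.07, 0.02, 0.06 and -0.01 on the log2 scale, while S100a8 and Mmp8 were at 1.21 and 0.33. These genes were named after their values were seen. Among CCl4 livers Elane was lowest and Ltf highest in replicate 2. The part of neutrophils in the Cxcl1 and Cxcl2 values was not tested.

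Cxcr2, the receptor of Cxcl1 and Cxcl2, was 2.05, 2.95, 2.25, 2.68 and 2.04 in CCl4 replicates 1 to 5 and 1.51, 2.01, 2.06, 1.94 and 2.07 in oil replicates 1 to 5. CCl4 replicates 2 and 4 were high, as in Retnlg. Its log2 fold change was 0.47 ± 0.19 (SE) with a limma adjusted p of 0.377. Of 16 genes of NF-κB and IL-17 signalling, which induces Cxcl1 and Cxcl2, 14 were measured and 0 passed. The list also holds targets of that signalling. The log2 fold change was positive for 13, against 7798 of all 14860 genes, and had a median of 0.34. Tnfaip3, an NF-κB target that restrains the pathway, was 2.78, 3.42, 2.76, 2.78 and 3.16 in CCl4 replicates 1 to 5 and between 2.45 and 2.52 in oil livers. All 5 CCl4 livers lay above all 5 oil livers, as for 2.73% of all probe sets. Replicates 2 and 5 were the highest CCl4 livers, as for Cxcl1. The limma adjusted p of Tnfaip3 was 0.133, and that of the cytokine gene Il1a, at 0.86 on the log2 scale, was 0.395.

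**Figure D3:**
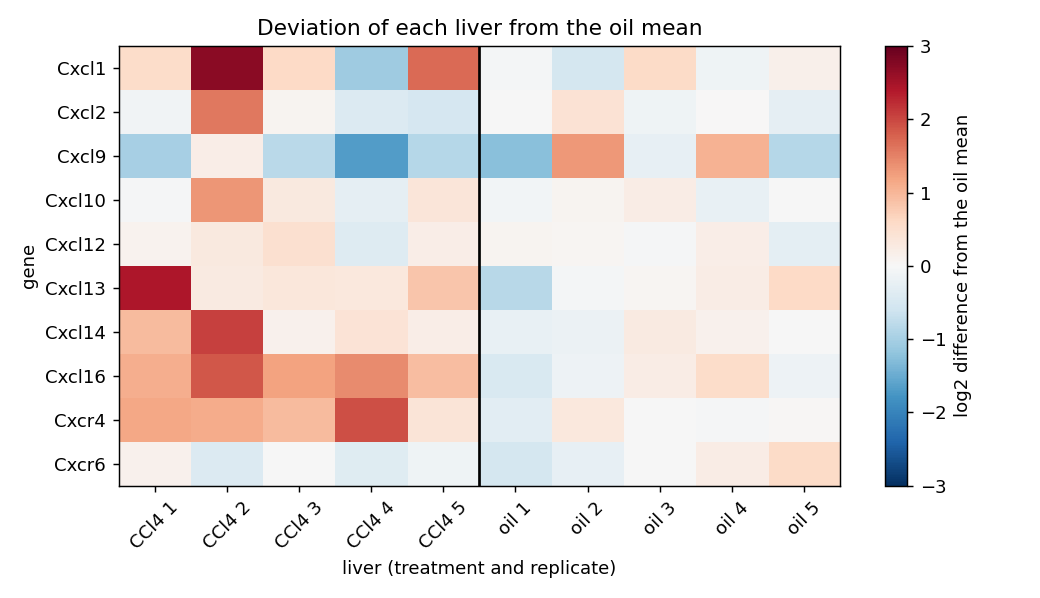
Difference of each liver (columns, CCl4 replicates at the left and oil replicates at the right) from the oil mean of each gene (rows), on the log2 scale shown by colour. CCl4 replicate 2 is highest among CCl4 livers for 6 of the 10 genes, and Cxcl9 is the gene in which oil replicates 2 and 4 stand above the oil mean most.

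Cxcl9 and Cxcl10, both interferon-induced ligands of Cxcr3, differed in their pattern over the livers. Cxcl9 was 3.99, 5.20, 4.19, 3.32 and 4.13 in CCl4 replicates 1 to 5 and 3.74, 6.30, 4.74, 6.04 and 4.15 in oil replicates 1 to 5. Oil replicates 2 and 4 lay above every CCl4 liver, and oil replicate 1 lay below all CCl4 livers except replicate 4. The log2 fold change of Cxcl9 was -0.83 with a 95% confidence interval from -1.99 to 0.33 and a limma adjusted p of 0.620. It was -0.50 without oil replicate 2 and -1.14 without oil replicate 1.

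Cxcl10 was 2.77, 4.13, 3.09, 2.54 and 3.16 in CCl4 replicates 1 to 5 and 2.73, 2.88, 3.03, 2.59 and 2.79 in oil replicates 1 to 5. CCl4 replicate 2 again stood above the other livers, while oil replicates 2 and 4 were not raised as they were in Cxcl9. The log2 fold change of Cxcl10 was 0.34 (limma adjusted p = 0.708) and 0.09 without CCl4 replicate 2. The difference in direction between Cxcl9 and Cxcl10 was not tested.

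Genes of interferon gamma signalling, which induces both ligands, were examined, and the list also holds targets of that signalling. Of 13 genes 11 were measured and 0 passed. The log2 fold change was positive for 10, against 7798 of all 14860 genes, and had a median of 0.23. Irf8, an interferon regulatory factor of myeloid cells, was 3.78, 4.11, 3.70, 4.24 and 3.23 in CCl4 replicates 1 to 5 and 2.92, 3.25, 3.05, 2.89 and 2.33 in oil replicates 1 to 5, with a limma adjusted p of 0.0923. Ifngr2, a chain of the interferon gamma receptor, was at 0.52 (limma adjusted p = 0.130). Gbp3, an interferon-induced GTPase named after its values were seen, was highest among CCl4 livers in replicate 2 at 4.22 (the others 2.93 to 3.02) and highest among oil livers in replicate 4 at 3.61 (the others 2.45 to 3.14). Ifng was between 2.09 and 2.41 in CCl4 livers, lowest in replicate 2, and between 1.91 and 2.20 in oil livers. Cxcr3, the receptor of both ligands, was at -0.04 (limma adjusted p = 0.965), and it and Ifng were named after their values were seen. The probe sets of Cxcr3 and Ifng lay below the median of all probe sets.

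Cxcl13, which guides B cells to lymphoid follicles, was 5.108, 2.953, 3.022, 2.999 and 3.495 in CCl4 replicates 1 to 5 and 1.83, 2.62, 2.74, 2.90 and 3.27 in oil replicates 1 to 5. CCl4 replicate 1 lay far above all other livers, and oil replicate 1 was the lowest. Its log2 fold change was 0.84 with a 95% confidence interval from -0.09 to 1.77 and a limma adjusted p of 0.499. It was 0.44 without CCl4 replicate 1. Of 8 B and plasma cell markers 6 were measured and 0 passed, with a mean log2 value between 3.18 and 3.44 in CCl4 livers and between 3.12 and 3.23 in oil livers. CCl4 replicate 1 was not the highest of them, and Cd79b, a chain of the B cell receptor complex, was at 0.26 on the log2 scale. Sdc1, a proteoglycan of plasma cells that hepatocytes also make, was at 0.26 too. With a mean of 8.14 over all arrays, Sdc1 raised the list mean. The other measured markers had means between 1.46 and 2.98. Cxcr5, the receptor of Cxcl13, was at -0.09 (limma adjusted p = 0.851) and was named after its values were seen. The probe set of Cxcr5 lay below the median of all probe sets. Of 7 partners of Cxcl13 in lymphoid tissue 4 were measured and 0 passed, with a median log2 fold change of 0.08. Ltb, which encodes lymphotoxin β, was highest in CCl4 replicate 2 at 3.42 and was 1.91 in CCl4 replicate 1. Tnfsf13b, the B cell survival factor BAFF, was at 0.14.

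Cxcl14, a ligand of epithelia and stromal cells whose receptor is not settled, was 4.61, 5.71, 3.79, 4.07 and 3.86 in CCl4 replicates 1 to 5. It was 3.44, 3.48, 3.94, 3.78 and 3.66 in oil replicates 1 to 5. CCl4 replicates 1, 2 and 4 lay above every oil liver, and replicates 3 and 5 lay within the range of the oil livers. For Cxcl14 the log2 fold change was 0.75 ± 0.33 (SE), with a limma adjusted p of 0.426 and an unadjusted p of 0.0455. Without CCl4 replicate 2 it was 0.42.

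The study's own rule was a fold above 1.6 with p under 0.05, taken here as unadjusted, which the methods do not state. By that rule the limma fit placed Cxcl14, Cxcl16 and Cxcr4 among the higher genes and 0 of the 10 among the lower. Among all probe sets 2.56% were higher and 0.819% lower by that rule. With the methods' t-test in place of limma, Cxcl16 and Cxcr4 met it, as did 2.34% of all probe sets in the higher direction and 0.664% in the lower. After Benjamini-Hochberg adjustment of that test 0 of the 10 genes passed, against 0.0514% of all probe sets higher and 0.00857% lower.

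Over the 10 genes CCl4 replicate 2 was the highest CCl4 liver for 6 (Cxcl1, Cxcl2, Cxcl9, Cxcl10, Cxcl14 and Cxcl16), as it was for 21.4% of all probe sets. CCl4 replicate 4 was the lowest CCl4 liver for 4 (Cxcl1, Cxcl9, Cxcl10 and Cxcl12), as for 21.7% of all probe sets. Among oil livers, replicate 1 was the lowest for 6 (Cxcl9, Cxcl13, Cxcl14, Cxcl16, Cxcr4 and Cxcr6), as for 29.6% of all probe sets. The genes share arrays, and these counts are a description.

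**Figure D4:**
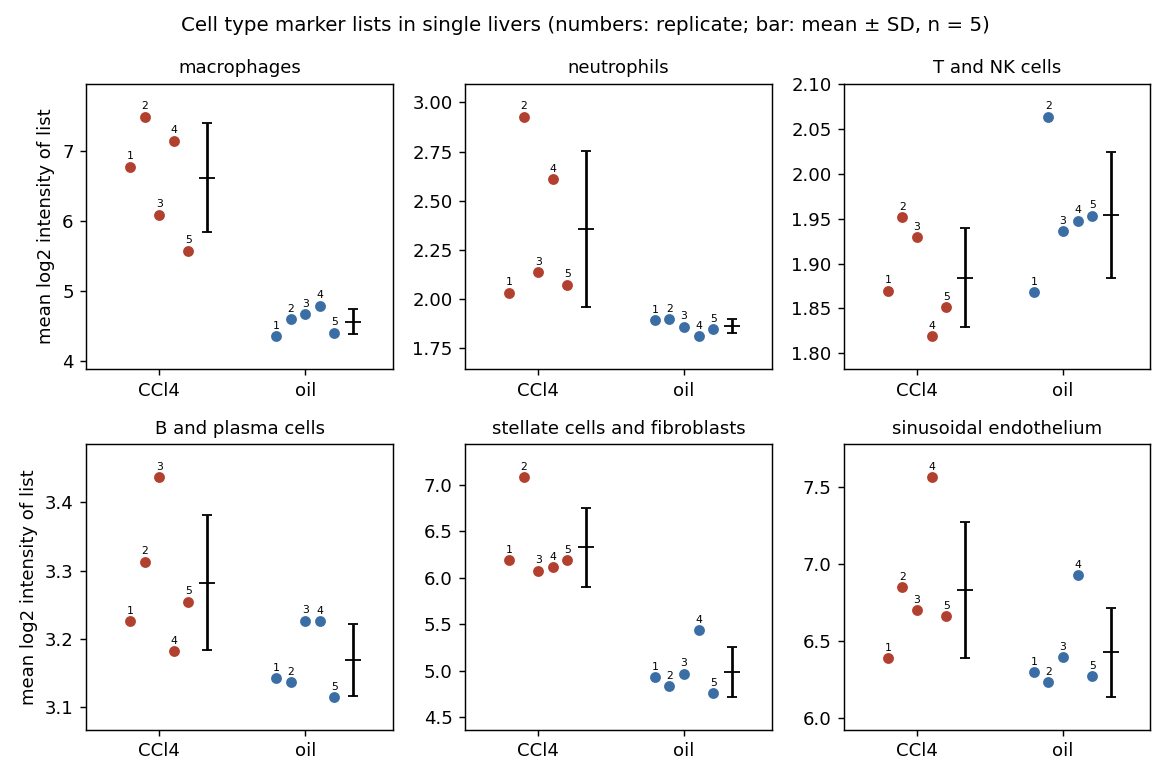
Mean log2 intensity (vertical axis, own scale in each panel) of 6 marker lists in single livers, CCl4 in red at the left and oil in blue at the right, with replicate numbers and the mean ± SD (n = 5). The CCl4 and oil livers do not overlap for macrophages, neutrophils, and stellate cells and fibroblasts, and they overlap for sinusoidal endothelium and for both lymphocyte lists.

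The remaining CXC ligands and receptors did not pass. Of 7 other ligands 6 were measured and 0 were higher or lower, with a median log2 fold change of 0.01. Cxcl17, a mucosal ligand, was at -0.18 and Pf4, the platelet factor, at 0.30, with limma adjusted p of 0.493 and 0.593. The 8 other and atypical receptors were all measured and 0 passed, with a median log2 fold change of -0.04. Ackr2, a decoy receptor for CC chemokines, was 3.06, 3.91, 3.69, 4.72 and 3.71 in CCl4 replicates 1 to 5 and between 2.95 and 3.76 in oil livers, which gave a log2 fold change of 0.53 with a limma adjusted p of 0.523. Cxcl3 was not analysed here.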

How the data were processed

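Total RNA of 5 CCl4 and 5 oil livers was measured on Affymetrix whole-transcript mouse arrays. The authors deposited 1 log2 value per probe set and array. The sources name no scale. Log2 was taken because no value exceeded 13.4, while a 16-bit scan can reach 16 on that scale and 11.1 as a natural log. Normalization and summarisation are not given in the sources used here, nor is the harvest hour. Detection calls and scan batches were not analysed here, so signal over background is unknown. Precision is limited by the number of arrays. The array annotation named 14996 probe sets with 1 symbol, 1019 with several and 7317 with none, and genes were named from the first kind only, by the brightest probe set over the 10 arrays. All 10 symbols matched RefSeq GRCm38.p6 by gene identifier.

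CCl4 was compared with oil by limma 3.58.1 in R 4.3.3 (lmFit and eBayes, no block), adjusted over 23332 probe sets by Benjamini-Hochberg, threshold 0.05, and tested on simulated data. The members and lists were chosen with earlier results of these data known. Besides all 10 genes, the text names every gene past the threshold in each of 15 lists (at most 4), otherwise the 2 with the smallest adjusted p, and the 3 genes most like each member that passed. Exceptions are marked. Alternatives were the replicate block, quantile normalization, median centring, array weights, an eBayes trend, brighter probe sets only, a clock covariate (Arntl minus Dbp), the methods' t-test and leaving out each array. Another probe set per gene could not be tried, since each gene had 1. The motif letters were shortened after longer forms had been searched, and Cxcl9 and Cxcr4 matched only the shorter forms.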

Additional observations from a re-analysis of the deposited data

Results flagged for a closer look

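In groups of 5 livers a single liver was set apart from the rest by Dixon's criterion, which chance meets in about 1 of 20 groups. Of 20 groups of the CXC genes 2 met it. Cxcl2 in CCl4 replicate 2 was 3.42, where the next CCl4 liver was 1.93 and the lowest 1.34. Cxcl13 in CCl4 replicate 1 was 5.11, where the next CCl4 liver was 3.49 and the lowest 2.95. Of 88 groups in all, 9 met it, and the other 7 were genes of the lists and of the likeness comparison. CCl4 replicate 2 was high in Col1a2 (8.47), Pdgfrb (6.00) and Ppic (6.77). CCl4 replicate 5 was high in the epithelial gene Epcam (2.69), and CCl4 replicate 4 was low in the hepatocyte gene Ttr (12.4). Oil replicate 4 was high in Cxcl17 (3.36) and oil replicate 1 low in Cxcr2 (1.51).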

How the results depend on the processing

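Cxcl16 was positive in every setting. Its log2 fold change was 1.30 with the replicate number as a block (limma adjusted p = 0.0828), 1.38 with the clock covariate (0.0511) and 1.30 by the methods' t-test after Benjamini-Hochberg (0.112), and none of these passed the threshold. With each array left out it ranged between 1.16 and 1.43. The count of the 10 genes that were higher was 0 under each of these settings, and between 0 and 2 with 1 array left out. The count of higher genes in the related lists, 2 in the report, was 1 in each of those 3 settings and between 1 and 4 with 1 array left out. Quantile normalization, median centring, array weights, the eBayes trend and brighter probe sets kept Cxcl16 past the threshold. No count of lower genes changed from 0. Cxcl2 changed sign with the clock covariate (-0.039) and without CCl4 replicate 2 (-0.23, the lowest with an array left out, against 0.29 at the highest), and Cxcr4 passed without CCl4 replicate 5 (1.29). The labels give same-numbered livers no shared origin, and the numbers were not taken to pair them, since the correlation of their deviations over probe sets lay between -0.04 and 0.16 and 1 of 5 pairs exceeded 0.1. Replicates 1 and 2 were nevertheless alike in clock genes, with Arntl at 3.15 and 3.21 in CCl4 livers and 3.14 and 3.41 in oil livers. Arntl was at least 4.71 in CCl4 replicates 3 to 5 and at least 5.38 in oil replicates 3 to 5. Of the CCl4 livers 2 of 5, and of the oil livers 1 of 5, correlated best with their own number. With the block, 30 probe sets were higher and 6 lower in all, against 147 and 21 without it. Cxcl2, Cxcr4 and Cxcr6 lay below the median brightness and had no value among brighter probe sets only. The causes of these changes were not tested.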

Other observations

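No gene of the remaining cell type lists passed the threshold, and the lists were not tested as sets. Of 8 sinusoidal endothelial markers 7 were measured, with a median log2 fold change of 0.20 and Lyve1, a hyaluronan receptor, at 2.14 (limma adjusted p = 0.213). Lyve1 was 8.39 in CCl4 replicate 4 and 6.04 in oil replicate 4, each the highest of its group. Kdr, a receptor for vascular endothelial growth factor, was at -0.15. The medians of the bile duct, hepatocyte and platelet lists were 0.26, 0.04 and 0.15, with 0 genes past the threshold in each. Epcam and Krt19 were at 0.26 and 0.45, Tat and Ttr at 0.21 and -0.09, and Gp9 at 0.26 on the log2 scale.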
